A study of Homo sapiens with 96 samples.

Results

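The comparison described here is the effect of Bmal1 knockdown on total RNA at circadian times CT04, CT06 and CT08, and how it differed from the effect at the other 9 times of the day. These 3 times were chosen because they span the phase of highest NR1D2 RNA in wild-type cells. They hold 12 of the 96 libraries of the series, 6 of knockdown and 6 of wild-type cells, and they were set against 36 total RNA libraries of the other 9 times. The cells were U2-OS, a human osteosarcoma line, with luciferase under the Per2 promoter as a clock reporter. Cells of both groups were synchronised with 0.1 µM dexamethasone, a glucocorticoid that resets the cellular clock. They were first collected 24.5 h later and then every 2 h, after cycloheximide at 100 µg/mL, which holds ribosomes on mRNA. Wild-type cells were seeded at 2.25 M (1 M is 1e+06) cells and received no siRNA. Knockdown cells were seeded at 0.56 M cells and transfected with 5 pooled siRNAs, 120 pmol in all, against Bmal1 (an siRNA guides the cell to cut a matching mRNA), whose symbol in the tables is ARNTL. No control siRNA is labelled, so knockdown, transfection and seeding density cannot be told apart. The labels do not state that the 2 replicates at each time were separate cultures, so the p-values cover spread between libraries that may be of technical origin.

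ARNTL pairs with CLOCK and binds E-box sequences, from which it drives the PER and CRY repressors, the NR1D nuclear receptors and the D-box factors DBP, TEF and HLF. PER and CRY proteins inhibit ARNTL and CLOCK, while NR1D1 and NR1D2 repress ARNTL itself through ROR elements in its promoter. The result is a daily cycle in which the E-box targets and ARNTL peak at opposite phases. U2-OS cells are a standard culture model of this loop.

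Among the clock genes with a called difference, the promoters of ARNTL, PER2, TEF and NR1D2, which had the largest ones, hold these elements, and their sequences are shown for that reason. All are RefSeq windows of 300 bases on GRCh38.p14, from 250 bases before to 50 after an annotated start, in the direction of the gene. Capitals mark an E-box (CACGTG), the related CACGTT, a D-box (TTATGTAA) or the ROR element core (TAGGTCA), each searched on both strands. For NR1D2, ARNTL and TEF the table lists a further start, and the window printed for NR1D2 and ARNTL is the one that holds a match.
NR1D2, chr3:23945871-23946170, plus strand: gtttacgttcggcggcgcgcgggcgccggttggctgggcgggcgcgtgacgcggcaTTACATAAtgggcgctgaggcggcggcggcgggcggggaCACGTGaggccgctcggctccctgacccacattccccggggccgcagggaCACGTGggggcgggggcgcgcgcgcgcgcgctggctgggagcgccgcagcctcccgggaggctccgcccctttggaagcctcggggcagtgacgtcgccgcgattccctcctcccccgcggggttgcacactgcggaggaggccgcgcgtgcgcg
TEF, chr22:41367205-41367504, plus strand: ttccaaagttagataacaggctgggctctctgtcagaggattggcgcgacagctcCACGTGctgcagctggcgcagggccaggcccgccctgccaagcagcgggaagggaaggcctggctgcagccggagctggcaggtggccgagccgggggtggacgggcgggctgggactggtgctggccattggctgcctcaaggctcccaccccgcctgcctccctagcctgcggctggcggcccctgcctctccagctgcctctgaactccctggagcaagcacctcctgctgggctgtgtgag
PER2, chr2:238288561-238288860, minus strand: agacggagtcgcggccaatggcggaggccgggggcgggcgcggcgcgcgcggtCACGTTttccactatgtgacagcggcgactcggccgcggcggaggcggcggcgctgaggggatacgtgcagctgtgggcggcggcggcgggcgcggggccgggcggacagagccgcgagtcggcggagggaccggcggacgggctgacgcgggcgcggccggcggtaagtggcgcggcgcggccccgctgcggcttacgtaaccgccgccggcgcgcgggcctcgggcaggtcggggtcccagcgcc
ARNTL, chr11:13277540-13277839, plus strand: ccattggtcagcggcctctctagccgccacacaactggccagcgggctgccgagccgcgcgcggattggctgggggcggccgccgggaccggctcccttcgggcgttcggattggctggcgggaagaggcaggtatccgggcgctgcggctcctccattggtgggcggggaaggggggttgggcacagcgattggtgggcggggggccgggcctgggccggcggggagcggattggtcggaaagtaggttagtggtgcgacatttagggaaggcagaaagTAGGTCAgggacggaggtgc
The NR1D2 window held 2 E-boxes, at 155 and 105 bases before the start, and a D-box. The TEF window held an E-box 195 bases before the start, and the PER2 window a CACGTT 197 bases before it. The ARNTL window held a ROR element 31 bases into the transcript and no E-box. Of 20 clock genes with a window in the table, 6 held CACGTG, 5 CACGTT, 2 the D-box and 3 the ROR element in any of their windows. Among all 35116 windows, these were found in 7.26%, 5.34%, 0.886% and 1.85%. These shares are per window, while the clock counts are per gene over any of its windows, so they are not directly comparable. These matches describe letters in the windows and were not tested as binding sites.

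Levels are given as counts per M reads (CPM), and differences on a log2 scale of CPM plus 0.25. The effect is knockdown minus wild-type, and a gene was called at an adjusted p under 0.05. The 12 libraries at CT04 to CT08 held 14.2 to 20.1 M reads. At the other times 2 knockdown libraries held under 3 M reads, and the other 16 knockdown and 18 wild-type libraries at least 13.6 M. Matrix and osteoblast genes had a summed level of 4668 to 5361 CPM in knockdown and 3131 to 3678 CPM in wild-type libraries at CT04 to CT08. FN1 and SPARC were the highest of them. RUNX2 was at 7.72 to 8.94 CPM in knockdown and 11.6 to 16.9 CPM in wild-type, and ALPL at 11.2 to 13.6 and 3.21 to 5.54 CPM. COL1A2, BGN and POSTN were at most at 0.484 CPM. Of the 9 epithelial markers, KRT8 and KRT18 held most of a summed level of 376 to 408 CPM in knockdown and 405 to 452 CPM in wild-type libraries, and KRT5 and KRT19 had no read in the knockdown libraries. The 8 blood and immune markers summed to 11.5 to 15.1 CPM in knockdown and 2.33 to 3.44 CPM in wild-type cells. CD68 made up most of that, and CD3E and HBA1 had no read in the 12 libraries. The 8 neuronal markers summed to 314 to 394 CPM and 358 to 419 CPM. The knockdown library of replicate 1 at CT08 stood apart in NF-kB and inflammatory genes, whose summed level was 1469 CPM there and 349 to 390 CPM in the other 5 knockdown libraries. IL8, a chemokine that attracts neutrophils, was at 619.9 CPM in it against 5.82 to 7.30 CPM. Without this library the count of genes whose effect differed between the sets of times (230, described further on) was 227. The part of such markers in the results was not tested, and in bulk RNA fewer cells of a type cannot be told apart from less RNA per cell.

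ARNTL, the targeted gene, was measured at 3.84, 4.60 and 6.16 CPM (lowest, median and highest of 6) in knockdown cells at CT04 to CT08, against 14.3, 17.99 and 23.5 CPM in wild-type cells. The groups did not overlap, and ARNTL was low in each of the 6 knockdown libraries. The knockdown left 24.7% of the wild-type level at these times and 13.2% at the others. These shares differed through the wild-type cells, where ARNTL was at 19.1 ± 3.69 CPM (SD, n = 6) at CT04 to CT08 and 37.0 ± 9.54 CPM (SD, n = 18) at the other times, while knockdown cells stayed at 4.71 ± 0.78 and 4.88 ± 0.70 CPM. The fall in ARNTL was therefore 1.95 ± 0.10 (SE) on the log2 scale at CT04 to CT08 and 2.82 ± 0.06 at the other times. The difference between them was 0.86 ± 0.12, with an adjusted p of 3.48e-05. By single times the effect on ARNTL was −2.41 at CT04, −1.66 at CT06 and −1.79 at CT08. The smaller fall was not limited to these times. At CT10 (−2.05) and CT12 (−2.28) the effect was weaker than at CT04, and at the remaining times it was −3.14 to −2.81.

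Over all 13188 genes tested, the knockdown effect at CT04 to CT08 was called for 8224 genes (62.4%), of which 4194 were higher (31.8%) and 4030 lower (30.6%) in knockdown cells. At the other 9 times, with 3 times as many libraries, 10462 genes (79.3%) were called. The effect at CT04 to CT08 differed from that at the other times for 230 genes (1.74%). It was more positive for 203 genes (1.54%) and more negative for 27 (0.205%), the latter including NR1D2. The median of all genes was 0.00 for this difference. Of the 203 genes, 188 were lower in knockdown cells at both sets of times and fell less at CT04 to CT08. Of the 27 genes, 14 were higher at both and rose less, and 9 were lower at both and fell further. Differences were small, with a median size of 0.31 and a largest size of 0.89, and 18 of the 230 reached 1.5-fold.

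**Figure D1:**
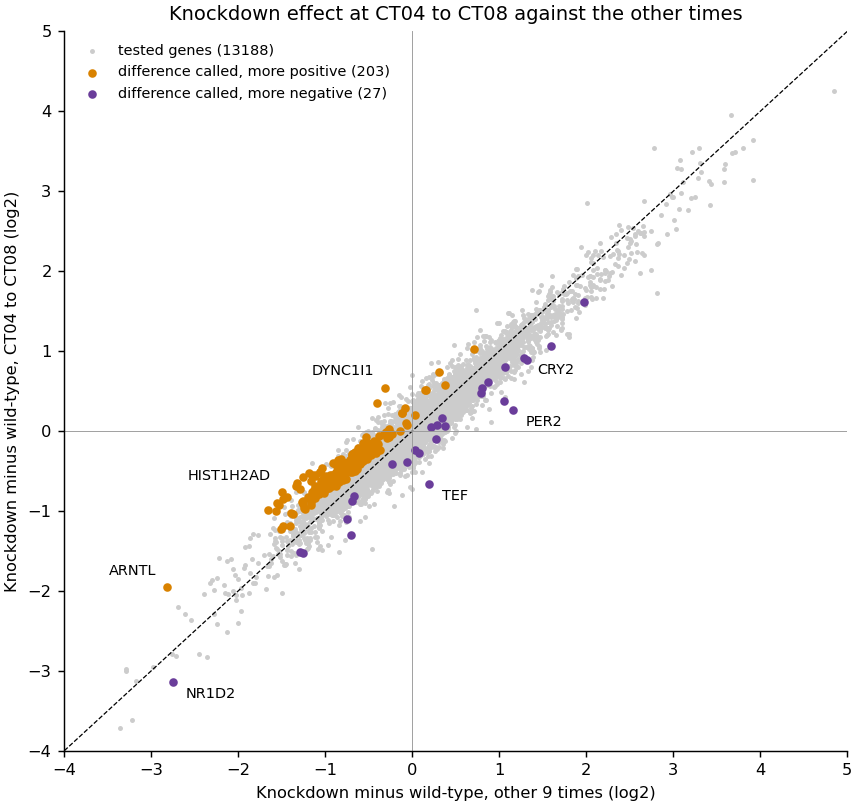
Each point is 1 of 13188 tested genes, with its knockdown effect (log2, knockdown minus wild-type) at the other 9 times on the horizontal axis and at CT04 to CT08 on the vertical axis. The 230 genes whose 2 effects differed are coloured, the dashed line marks equal effects, and 3 genes lie outside the axes. Most coloured genes sit below 0 on both axes and above the dashed line.

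Tested each time alone, 2 libraries against 2, the effect was called for 5236 genes at CT04, 5081 at CT06 and 5900 at CT08. The counts at the other times ran from 5261 at CT12 to 6663 at CT20, so CT06 had the fewest of the 12 times. These per-time counts rest on 2 replicates each and were not compared by a test.

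In the negative limb of the clock, 4 of 9 tested genes had a more negative effect at CT04 to CT08 (PER2, CRY2, PER3 and NR1D2, the last by the choice of the times) and none a more positive one. Over all genes tested these shares were 0.205% and 1.54%. The median difference over the 9 was −0.37, a description that includes NR1D2. NR1D2, the repressor of ARNTL whose wild-type level chose these times, is described without a test of that level. It was at 180, 219 and 235 CPM (lowest, median and highest) in wild-type and 21.1, 24.6 and 27.0 CPM in knockdown cells at CT04 to CT08. Knockdown cells thus held 11.2% of the wild-type level, against 14.5% at the other times. The effect was −3.14 at CT04 to CT08 and −2.75 at the other times. Within knockdown cells, which the choice did not use, NR1D2 was higher at CT04 to CT08 than at the other times by 0.18 ± 0.05 (SE), with an adjusted p of 0.00981.

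PER2, the repressor whose promoter also drives the reporter, had the largest difference of all 230 genes. It was at 16.4, 21.1 and 27.7 CPM in wild-type and 22.4, 24.2 and 33.7 CPM in knockdown cells at CT04 to CT08, and the groups overlapped. At the other times wild-type cells were at 12.9 ± 5.11 CPM (SD, n = 18) and knockdown cells at 27.2 ± 2.97 CPM. The effect on PER2 was 0.27 ± 0.10 (SE) at CT04 to CT08, and 0.21 with no call without the knockdown library of replicate 1 at CT08 (adjusted p 0.0806). Leaving out CT04 gave 0.16, also with no call. At the other times PER2 was raised by 1.16 ± 0.06, a difference of −0.89 ± 0.11 (adjusted p 9.45e-06). Wild-type PER2 came close to the knockdown level at these times, with effects of 0.04 to 0.48 by single times. It did so at CT10 (0.17) and CT12 (0.46) as well.

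CRY2, the partner of the PER proteins, was higher in knockdown cells at all times but less so here. It measured 54.5, 57.3 and 60.9 CPM in knockdown and 23.6, 31.1 and 36.5 CPM in wild-type cells at CT04 to CT08, with no overlap. The rise was 0.92 ± 0.07 against 1.29 ± 0.04 at the other times, a difference of −0.37 ± 0.08 (adjusted p 0.00692). PER3 was lower in knockdown cells, at 24.8, 28.7 and 30.1 CPM against 44.0, 62.3 and 82.9 CPM in wild-type cells. Its fall was deeper at CT04 to CT08 by 0.35 ± 0.09 (adjusted p 0.040), but not at CT04 alone. At CT04 PER3 was at 30.1 and 29.7 CPM in knockdown and 48.1 and 44.0 CPM in wild-type cells. The means at the other times were 27.8 and 48.9 CPM. Wild-type PER3 was at 57.2 to 82.9 CPM at CT06 and CT08.

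The other repressors did not pass the test of the difference. PER1 was at 32.0 to 38.8 CPM in knockdown and 38.6 to 47.6 CPM in wild-type cells at CT04 to CT08, with a difference of −0.41 ± 0.12 (adjusted p 0.0713). NR1D1, which overlaps the THRA gene and whose counting strand is not stated, was low, at 0.245 to 0.908 CPM in knockdown and 1.26 to 2.93 CPM in wild-type cells, and its difference was −1.02 ± 0.32 (adjusted p 0.126). For CRY1 the effects were 0.17 ± 0.05 and 0.21 ± 0.03, with a difference of −0.04 ± 0.05. BHLHE40, an E-box binding repressor, rose in knockdown cells by 0.93 ± 0.10 here and 1.26 ± 0.06 at the other times, and the difference of −0.33 ± 0.12 did not pass (adjusted p 0.224). For BHLHE41 the difference was 0.03 ± 0.34. Among the activators other than ARNTL, the differences were −0.08 ± 0.05 for CLOCK, −0.05 ± 0.21 for NPAS2 and 0.11 ± 0.07 for ARNTL2, and none passed.

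TEF, a D-box activator, changed the sign of its effect. It was at 36.7, 41.1 and 47.1 CPM in knockdown and 55.0, 63.5 and 78.0 CPM in wild-type cells at CT04 to CT08, with no overlap. At the other times it was at 40.6 ± 3.45 CPM (SD, n = 18) in knockdown and 37.1 ± 11.4 CPM in wild-type cells, and these overlapped. TEF was lower in knockdown cells by 0.66 ± 0.10 at CT04 to CT08 (adjusted p 1.21e-06) and higher by 0.19 ± 0.06 at the other times (adjusted p 0.00375). The difference was −0.85 ± 0.12, with an adjusted p of 3.15e-05. Knockdown TEF differed by 0.03 ± 0.08 between the sets of times. By single times the effect on TEF was −0.72 to −0.59 at CT04 to CT08. It was also negative at CT02 (−0.20), CT10 (−0.36), CT12 (−0.10) and CT22 (−0.06), and positive at the other 5 times, up to 0.78 at CT00.

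NFIL3, which represses at the D-boxes that TEF activates, moved the other way. It was at 22.1, 25.7 and 27.8 CPM in knockdown and 16.3, 17.2 and 19.1 CPM in wild-type cells, with no overlap. The rise was 0.52 ± 0.07 at CT04 to CT08 and 0.15 ± 0.04 at the other times, a difference of 0.37 ± 0.08 (adjusted p 0.0116). DBP fell by 1.43 ± 0.12 here and 0.97 ± 0.07 at the other times, and the difference of −0.46 ± 0.14 did not pass (adjusted p 0.0909). HLF (−0.49 ± 0.23), RORA (0.27 ± 0.11) and RORB (0.63 ± 0.21) did not pass either, and HLF and RORB had means under 2 CPM. WEE1, a kinase that restrains entry into mitosis, fell less at CT04 to CT08, by 0.37 ± 0.04 against 0.59 ± 0.02, and it did so through the knockdown cells, which were 0.31 ± 0.03 higher than at the other times (adjusted p 3.5e-08).

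**Figure D2:**
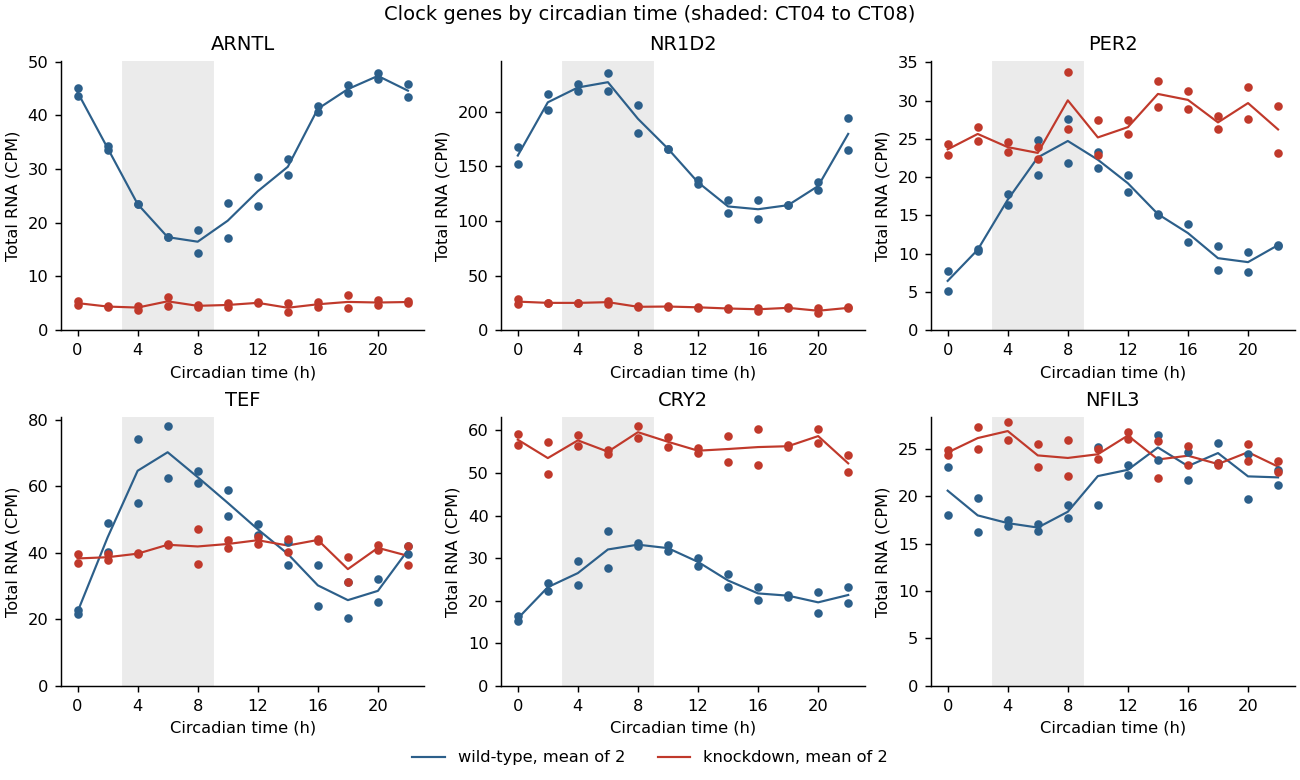
Total RNA in CPM (vertical axis) by circadian time in hours for 6 clock genes, with each library as a point and the mean of 2 replicates as a line, wild-type in blue and knockdown in red, CT04 to CT08 shaded. Between the shaded and the other times knockdown cells differed by 0.18 (log2) for NR1D2 and by less for the rest. The gap between the lines changed mainly with the wild-type cells. These were low for ARNTL and NFIL3 and high for NR1D2, PER2, TEF and CRY2 in the shaded times.

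The 8 clock genes with a called difference and the rest of the 230 were then split by the treatment in which the level at CT04 to CT08 departed from the other times. Among the clock genes other than NR1D2, whose wild-type level chose the times, the wild-type cells alone passed that test for 6 and the knockdown cells alone for WEE1. Among all 230 genes the knockdown cells alone passed for 197, the wild-type cells alone for 17, both for 10 (NR1D2 counted there by the choice of the times) and neither for 6. Over all genes tested, 2.31% changed at CT04 to CT08 within wild-type cells and 10.6% within knockdown cells. These contrasts share libraries with the difference itself and are given beside it as a description.

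**Figure D3:**
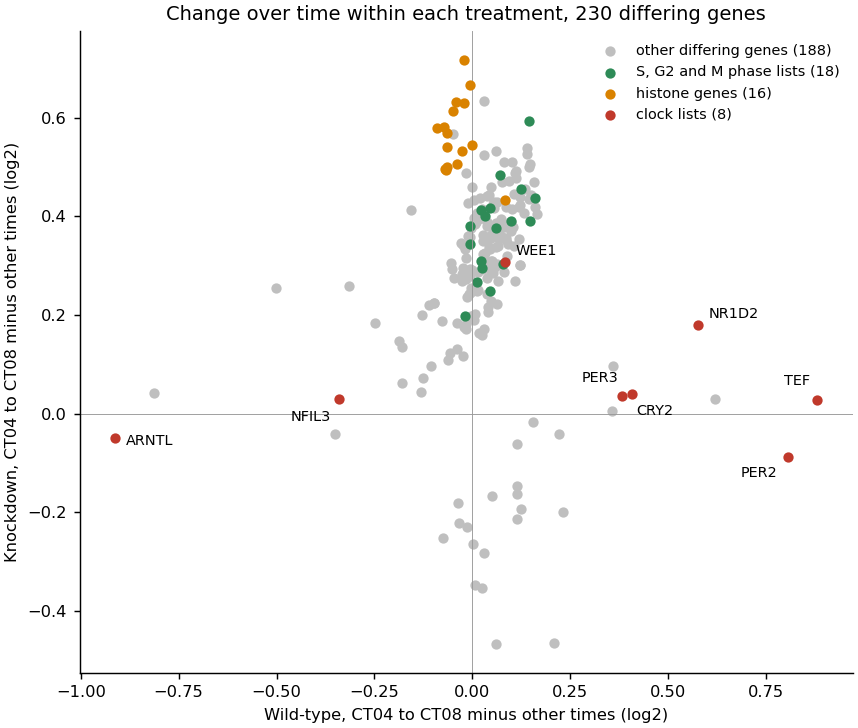
For each of the 230 genes, the level at CT04 to CT08 minus that at the other times (log2) in wild-type cells on the horizontal axis and in knockdown cells on the vertical axis. Clock genes other than WEE1 spread along the wild-type axis from −0.91 for ARNTL to 0.88 for TEF, while the 16 histone genes lie along the knockdown axis between 0.43 and 0.72.

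Histone genes supply the proteins that package newly made DNA and are expressed mainly in S phase. All symbols starting with HIST were grouped after their values were seen. Of 35 such genes in the tables, 17 passed the filter on low values, which could favour genes high in wild-type cells. A called, more positive effect at CT04 to CT08 was found for 16 of these 17, against 1.54% of all genes tested. The 17 summed to 6784, 8314 and 9052 CPM (lowest, median and highest) in knockdown and 11263, 12424 and 14435 CPM in wild-type cells at CT04 to CT08. At the other times the sum was 5652 ± 1548 CPM (SD, n = 18) in knockdown and 12914 ± 1225 CPM in wild-type cells. Histone RNA was thus lower in knockdown cells at all times, with a median effect over the 17 genes of −0.65 at CT04 to CT08 and −1.29 at the other times. Members of the family are near-identical in sequence and reads can be split or shared between them, so values of single histone genes are uncertain.

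HIST1H2AD, an H2A gene, was at 72.1, 89.7 and 99.0 CPM in knockdown and 132, 144 and 171 CPM in wild-type cells at CT04 to CT08, with no overlap. It fell by 0.77 ± 0.11 here and by 1.50 ± 0.07 at the other times, a difference of 0.74 ± 0.13 (adjusted p 0.00106). HIST1H2BJ, an H2B gene, was at 576 to 784 CPM in knockdown and 874 to 1273 CPM in wild-type cells, and its difference was 0.67 ± 0.08 (adjusted p 7.54e-06). HIST1H2AH, HIST1H2BL, HIST1H2AG and HIST1H3D had differences of 0.65 to 0.67 and likewise did not overlap between treatments at these times. Such a lack of overlap was found for 188 of the 230 genes with a called difference, so it was not particular to histones. HIST1H1A did not pass, at 0.43 (adjusted p 0.229).

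Genes of the S phase list act in DNA replication, and 13 of 27 tested had a called, more positive effect at CT04 to CT08, none a more negative one. Over all genes tested, 1.54% were more positive and 0.205% more negative, so the lack of a more negative one is near that share. The median effect of the S phase list was −0.66 at CT04 to CT08 and −0.91 at the other times. CDC45, part of the replicative helicase, was at 90.5, 106 and 113 CPM in knockdown and 142, 156 and 179 CPM in wild-type cells, with no overlap. It fell by 0.63 ± 0.06 here and by 1.05 ± 0.03 at the other times, a difference of 0.41 ± 0.06 (adjusted p 0.000128). RFC4, a subunit of the loader of the PCNA clamp, had a difference of 0.39 ± 0.07 (adjusted p 0.000679). The others called were MCM2, MCM4, MCM7, CDC6, GINS1, PCNA, RRM1, TK1, POLE, FEN1 and E2F1, with differences from 0.20 for PCNA to 0.39 for E2F1.

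In the G2 and M phase list, 5 of 30 tested genes had a called, more positive effect and none a more negative one. Over all genes tested these shares were 1.54% and 0.205%. The median effect of the list was −0.71 here and −0.84 at the other times. CDK1, the kinase that drives mitosis, was at 229, 257 and 270 CPM in knockdown and 307, 334 and 388 CPM in wild-type cells, with no overlap. Its fall of 0.42 ± 0.07 here and 0.87 ± 0.04 at the other times differed by 0.45 ± 0.08 (adjusted p 0.00157). TOP2A, which untangles DNA before division, differed by 0.33 ± 0.08 (adjusted p 0.0157). KIF11, KIF23 and PRC1, which build the spindle or its midzone, were the other 3. Together the histones and these lists account for 34 of the 203 genes with a more positive effect. Among the remainder, picked after their values were seen, were ESCO2 (0.60), RAD54B (0.50), ASF1B (0.49), EXO1 (0.47), BRCA1 (0.29) and BRCA2 (0.29), which act in sister chromatid cohesion, chromatin assembly or DNA repair.

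**Figure D4:**
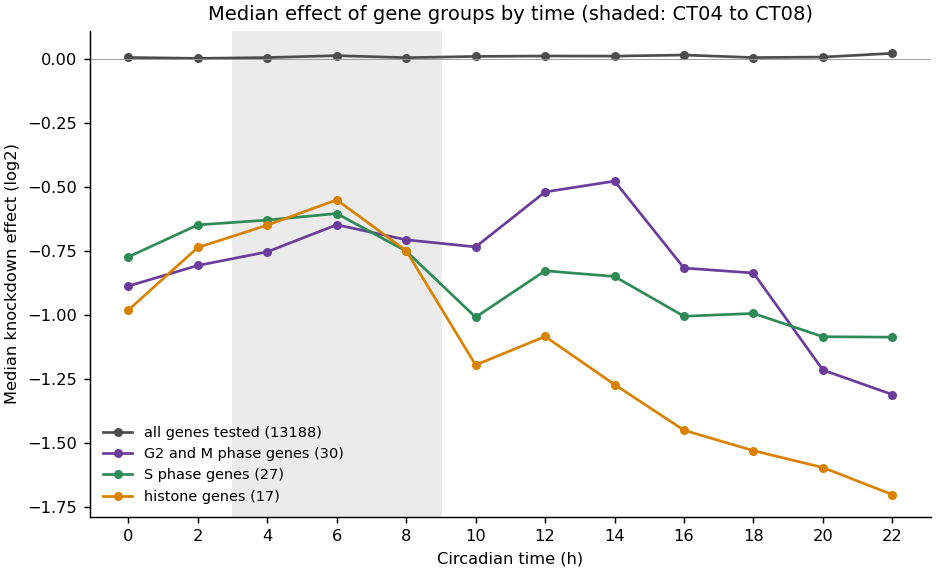
Median knockdown effect (log2, vertical axis) by circadian time in hours over 17 histone, 27 S phase and 30 G2 and M phase genes and over all 13188 genes tested, CT04 to CT08 shaded. The histone median was −0.55 at CT06 and −1.70 at CT22, while the median of all genes stayed between 0.00 and 0.02.

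The histone effect was smallest at CT06, at −0.55, but it was −0.74 at CT02 and −0.75 at CT08, and it went on to −1.20 at CT10 and −1.70 at CT22. The S phase median was −0.60 at CT06, −0.65 at CT02 and −1.09 at CT22. The G2 and M phase median was −0.65 at CT06, and it was nearer to 0 at CT12 (−0.52) and CT14 (−0.48) than at CT04 to CT08. Against CT18, CT20 and CT22 alone, the median difference of the histones was 0.89, and against CT00, CT02, CT10 and CT12 it was 0.35.

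The choice of reference times decided the number of calls. Set against the flanking times CT00, CT02, CT10 and CT12 alone, limma called no gene, with 340 at an unadjusted p under 0.05, and PER2 and TEF had the lowest adjusted p of the named genes, 0.0896 for each. The clock genes with the largest differences kept most of their size there without a call, at −0.67 for PER2, −0.69 for TEF and 0.61 for ARNTL. The flanking times were not alike. At CT10 the effects on PER2 (0.17) and ARNTL (−2.05) were near those at CT04 to CT08 (0.27 and −1.95). At CT00 they were 1.86 and −3.07. With a linear drift of the effect across the 12 times in the model, no gene was called either, with 417 at an unadjusted p under 0.05; that fit takes the scatter of the effect around the line as error. The same difference was then −0.91 for PER2, −0.83 for TEF and 0.81 for ARNTL, but 0.41 for HIST1H2AH and 0.24 for CDC45.

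Outside the clock and the cell cycle, few genes of the fixed lists differed. HSPA5, the main chaperone of the endoplasmic reticulum, was at 138, 148 and 167 CPM in knockdown and 161, 185 and 199 CPM in wild-type cells at CT04 to CT08, and the groups overlapped. It was lower in knockdown cells here by 0.28 ± 0.07, while at the other times the effect was 0.08 ± 0.04, a difference of −0.35 ± 0.08 (adjusted p 0.00927). It was the only one of 18 chaperones of that compartment with a called difference. HSPA8, a constitutive cytosolic chaperone, was the only one of 14 heat shock genes (−0.17 ± 0.04, adjusted p 0.0164). SERPINH1, the collagen chaperone, was the only one of 18 matrix and osteoblast genes (−0.15 ± 0.04, adjusted p 0.0311), and it lost the call without the knockdown library of replicate 1 at CT08 (−0.12, adjusted p 0.105). Against the flanking times, the differences of HSPA5, HSPA8 and SERPINH1 were −0.06, −0.03 and −0.02.

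The remaining lists had no called difference. They were the 21 p53 targets, of which 20 were higher in knockdown cells at CT04 to CT08 with a median effect of 1.23 (1.14 at the other times), and 14 NF-kB and inflammatory genes, of which 11 were higher with a median of 1.37 (1.00). That median was 0.84 without the knockdown library of replicate 1 at CT08, with 11 again higher, and by single times it was 0.95 at CT04, 0.81 at CT06 and 2.12 at CT08. The 26 ATF4 targets had a median effect of −0.40 (−0.29), with 16 lower and 4 higher. Over all genes tested, 31.8% were called higher and 30.6% lower in knockdown cells at CT04 to CT08. The medians of the difference were 0.04 for p53 targets, 0.02 for NF-kB and inflammatory genes (−0.26 without that library), 0.06 for ATF4 targets and −0.03 for interferon-stimulated genes. They were 0.03 for cholesterol synthesis, 0.05 for hypoxia and glycolysis, −0.11 for immediate early (−0.19 without it), 0.04 for glucocorticoid-induced and −0.02 for clock kinase and ligase genes, and 0.15 for the 2 cold-inducible genes. The median was 0.08 for the 6 epithelial and −0.02 for the 7 neuronal markers tested. Of the blood and immune markers 1 gene, CD68, passed the filter on low values, and its difference was −0.14.

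Among single genes with a large difference, DYNC1I1, a dynein intermediate chain, turned sign. It was at 2.08, 2.80 and 3.25 CPM in knockdown and 1.39, 1.84 and 2.06 CPM in wild-type cells at CT04 to CT08, which is 22 to 59 reads per library, and the groups did not overlap. The effect was 0.54 ± 0.19 here and −0.32 ± 0.11 at the other times, a difference of 0.85 ± 0.22 (adjusted p 0.0301). By single times it was also positive at CT00 (0.04), CT02 (0.30) and CT12 (0.27), and it ran from −0.50 to −0.88 at CT14 to CT22. KCNK3, a potassium leak channel, rose less here, by 0.38 ± 0.14 against 1.05 ± 0.08 (difference −0.67 ± 0.16, adjusted p 0.0179). The smaller rise was not limited to these times. By single times it was 0.45 at CT00 and 0.32 at CT02, against 0.19 to 0.59 at CT04 to CT08 and up to 1.91 at CT20. AL157440, a gene listed only under this symbol, fell further here, by 1.30 ± 0.11 against 0.71 ± 0.07 (difference −0.59 ± 0.13, adjusted p 0.00972). Its effect was also −1.47 at CT10 and −1.24 at CT12, against −1.43 to −1.08 at CT04 to CT08. MICALCL (−0.53 ± 0.13), NIPAL1, a magnesium transporter (−0.43 ± 0.11), and SH3BP1 (−0.38 ± 0.10) were the other genes with a large negative difference. For MICALCL the effect was 1.04 at CT00 and 1.12 at CT02, against 0.93 to 1.22 at CT04 to CT08 and 2.17 at CT18. For NIPAL1 it was 1.04 at CT00 and 1.01 at CT02, against 0.74 to 1.14 at CT04 to CT08 and 1.62 at CT22.

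An effect called with one sign at CT04 to CT08 and with the other sign at the other times was found for 10 genes (0.0758% of those tested), 7 of them higher and 3 lower in knockdown cells at CT04 to CT08, and the difference itself was called for 6. Besides TEF and DYNC1I1 these included GLRB, a glycine receptor subunit, with effects of 0.23 ± 0.07 and −0.12 ± 0.04, and the zinc finger gene ZNF620, with 0.22 ± 0.07 and −0.11 ± 0.04. The difference for ZNF620 lost the call without the knockdown library of replicate 1 at CT08 (adjusted p 0.0514). For ENPP4 (0.32 ± 0.09), PIP4K2C (−0.23 ± 0.06) and C11orf48 (−0.14 ± 0.04) the difference did not pass, with adjusted p of 0.0567, 0.0533 and 0.0732.

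Footprints, the mRNA pieces covered by ribosomes, were sequenced from separate libraries of the same design and had 2.50 to 5.82 M reads each. The same difference was called there for 66 of 11189 genes (0.59%), 57 more positive (0.509%) and 9 more negative (0.0804%). Of the 230 genes, 223 were tested in footprints and 221 had the same sign there (99.1%), against 66.1% of the 11149 genes tested in both. Most of the 11149 had no called difference, so this is not a like baseline for genes selected by a call. Whether both assays came from the same cultures was not tested. IL8 stood out in knockdown replicate 1 at CT08 in both (619.9 CPM in RNA, 341 CPM in footprints), so the assays may not be independent. Both assays called 48 genes, which is 21.5% of the 223 and 72.7% of the 66. The difference in footprints was −0.84 ± 0.19 for TEF (adjusted p 0.0294), 0.66 ± 0.09 for HIST1H2BJ (adjusted p 0.000216) and 0.50 ± 0.10 for CDK1 (adjusted p 0.0108). PER2 (−0.74 ± 0.21, adjusted p 0.132) and ARNTL (0.91 ± 0.38, adjusted p 0.39) had differences of like size in footprints that did not pass.

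**Figure D5:**
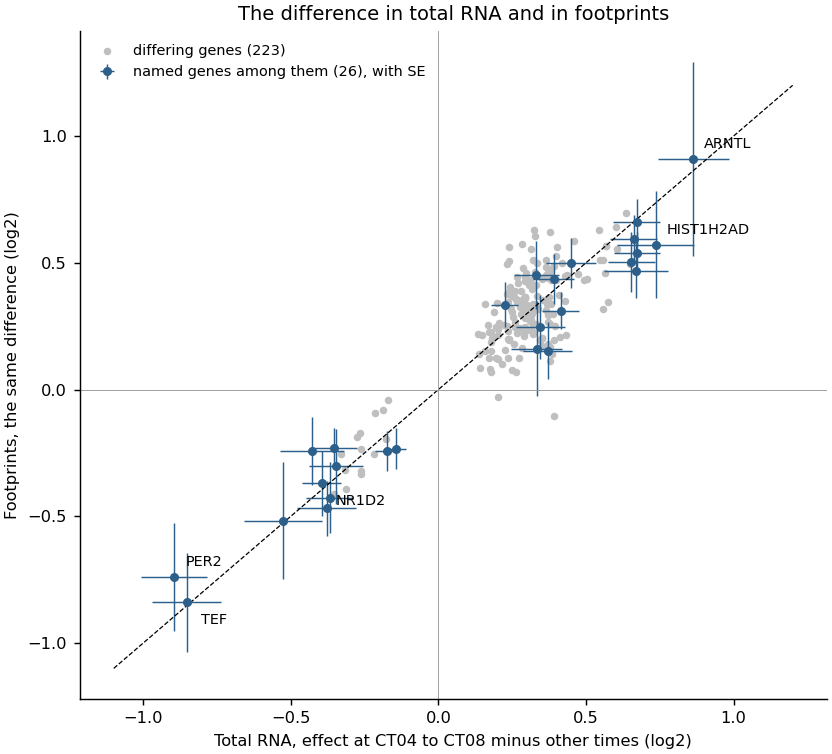
The effect at CT04 to CT08 minus that at the other times (log2) in total RNA on the horizontal axis and in footprints on the vertical axis for the 223 genes tested in both, with standard errors for 26 named genes and a dashed line of equality. All but 2 of the 223 points lie in the quadrants where both values have the same sign.

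Single times and libraries moved the count of 230. It was 311 without the 2 libraries under 3 M reads. It was 60 without CT06, 113 without CT04, 112 without CT22, 134 without CT20 and 350 without CT02, and 135 without the knockdown library of replicate 1 at CT04. Among the 29 named genes with a called difference, those that passed in every fit that left out 1 of the 12 libraries or 1 of the 12 times, leaving aside NR1D2, whose wild-type level chose the times, were ARNTL, PER2, TEF, CDC45, HIST1H2AG, HIST1H2AH, HIST1H2BJ, HIST1H2BL and HIST1H3D. With either replicate series alone no gene passed, with 698 and 1213 genes at an unadjusted p under 0.05; these fits have 1 library per time and treatment and use the spread over times as the error.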

How the data were processed

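Per the submitters' processing notes, the authors used STAR 2.3.0e for alignment, GRCh37 (hg19) as the genome, HTSeq 0.5.4p1 for counting and DESeq2 (no version stated) for normalisation. How strand was set in the counting is not given in the sources used here. The deposited values are therefore a scaled signal per gene and library. In the 8 tables of 19438 genes, 100% of the values were whole multiples of 1 step per library within 0.001 read, and these whole reads were recovered. Treatment and replicate were taken from the table and the time from the column name.

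Scaling of the recovered reads was by TMM (edgeR 4.0.16), separately for each assay, and genes were kept by filterByExpr at a minimum count of 10 with treatment as the group. Total RNA and footprints were each fitted with limma-trend (limma 3.58.1, R 4.3.3, robust empirical Bayes) on log2 CPM plus 0.25, with 1 mean for each treatment and time over 48 libraries. Contrasts were the effect at CT04 to CT08, at the other 9 times, their difference, and the change over time within each treatment. P-values were adjusted by Benjamini-Hochberg over all genes tested and called under 0.05. The script was tested on simulated data.

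Named genes were the 8 largest called differences in each direction that had equal sign in both replicates and averaged 1 or more log2 CPM, up to 4 sign changes in each direction, the tested members of the 3 clock lists, and up to 2 called members of each other list. The members, times and the 21 lists were chosen with earlier results of these data known. Promoter windows came from RefSeq by symbol or synonym; 18668 of the symbols in the tables matched a RefSeq gene. Coordinates are on GRCh38.p14, not the build of the alignments.

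Alternatives were DESeq2 1.42.0 scaling, the deposited scaling, no filter on low values, a pseudocount of 1 CPM, the edgeR quasi-likelihood test on recovered reads, replicate blocks, means of each series, left-out libraries, times and replicates, other reference times and windows, and a linear drift.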

Additional observations from a re-analysis of the deposited data

Results flagged for a closer look

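The knockdown effect at CT04 to CT08 differed from that at the other times, by a test of the difference itself, for 230 genes. Among the named genes with opposite signs at the 2 sets of times, this held for DYNC1I1 (0.85), TEF (−0.85), GLRB (0.35) and ZNF620 (0.33).

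In 14 of 130 sets of 6 libraries (88 of named genes and 42 of summed lists, by treatment at CT04 to CT08), 1 library stood apart from the other 5 by Dixon's criterion. Chance meets it in about 1 of 20 sets of independent values from a normal distribution. Each set here spans 3 times and 2 replicates, and all sets reuse the same 12 libraries, so that rate is no measure of chance for these counts. The knockdown library of replicate 1 at CT08 was the one in 9 of the 14 sets. Its summed level was 1469 CPM for NF-kB and inflammatory genes (349 to 390 in the other 5), 1241 CPM for immediate early genes (866 to 897), 698 CPM for clock kinases and ligases (669 to 677), 358 CPM for clock repressors (319 to 332) and 314 CPM for neuronal markers (368 to 394). Of the 19 NF-kB and inflammatory genes in the tables, 16 were above the other 5 libraries there. IL8 was at 619.9 CPM against 5.82 to 7.30, CCL20 at 67.0 against 4.67 to 5.39 and BIRC3 at 156 against 40.1 to 50.2. In the footprint library of that label IL8 was at 341 CPM, against 1.32 to 8.09 in the other 5. The same total RNA library was the highest for NIPAL1 (45.1 CPM against 26.3 to 29.2) and PER2 (33.7 against 22.4 to 26.4) and the lowest for GLRB (13.8 against 17.1 to 18.1) and AL157440 (6.52 against 8.49 to 9.16). For KCNK3 the wild-type library of replicate 2 at CT06 was highest, at 3.02 CPM and 53 reads, against 2.00 to 2.29. For NPAS2 the knockdown library of replicate 2 at CT08 was lowest, at 5.52 against 6.73 to 7.46 CPM, and for RORA that of replicate 1 at CT04 was highest, at 17.2 against 12.6 to 14.3 CPM. In the knockdown library of replicate 2 at CT08 the summed level was highest for endoplasmic reticulum chaperones, at 4343 against 3952 to 4090 CPM, and for matrix and osteoblast genes, at 5361 against 4668 to 4917 CPM.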

How the results depend on the processing

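The effect at CT04 to CT08 (8224 genes) and at the other times (10462) stayed within 1.5 times under the alternatives run, and no named gene changed sign with a call. The count of differing genes (230) was 0 against CT00, CT02, CT10 and CT12, 0 with a linear drift, 1067 against CT18 to CT22 and 617 with CT02 to CT10 as the window. It was 0 with either replicate alone and 60 to 350 over the left-out libraries and times. Scaling, pseudocount, filter and edgeR gave 212 to 263 genes. The share of more positive differences fell from 88.3% to 74.1% with series means, which called 274.

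Replicate numbers were shared by the treatments without pairing them: deviations from the group means correlated from −0.11 to 0.16 between wild-type and knockdown libraries of 1 time, and from 0.32 to 0.57 between times within wild-type cells. A replicate block gave 350 differing genes (79.1% more positive), and a block within treatment gave 649 (68.0%). All 29 named differences kept their call under both, and PER1 (adjusted p 0.0477 and 0.0405), ENPP4 and PIP4K2C gained one. NR1D1 (0.037), DBP (0.0477) and C11orf48 (0.0335) gained one with the block within treatment. With series means, 2 against 2, 23 of the 29 named differences kept their call, 6 lost it and 3 other named genes gained one. Of the 40 named genes with a called effect at CT04 to CT08, 29 kept it with series means and 11 lost it. Within wild-type cells the block moved 305 to 565 genes, the block within treatment to 1079, series means to 482, and left-out libraries, times and replicates to between 1 and 729. Within knockdown cells the block within treatment moved 1399 to 2481, and left-out ones to between 44 and 1939.

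Footprint differences (66) were 18 without the filter, 160 with the block within treatment, 129 with series means and 0 to 114 with left-out libraries, times and replicates. At 2.50 to 5.82 M reads the footprints had wider errors than total RNA for PER2 and ARNTL.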
